A study of Mus musculus with 31 samples.

Results

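The endothelin system was followed through 7 groups of laser-microdissected mouse embryonic nerve by 6 genes, chosen by name as the ligands Edn1, Edn2 and Edn3, the receptors Ednra and Ednrb and the converting enzyme Ece1, out of 47729 genes counted. All 6 passed the filter on low counts, which left 19332 genes for testing. Edn2 did so only through libraries of the olfactory nerve at E13.5 and E16.5, where it was highest. Its tests against lower groups are partly set by that filter. Endothelins are short peptides cut from larger precursors, the last step being made by endothelin converting enzymes such as Ece1. The receptors are G protein-coupled; Ednra favours the peptides of Edn1 and Edn2, whereas Ednrb takes all the ligands. In the neural crest, Edn3 and Ednrb are known for their part in melanoblasts and in the precursors of the enteric nervous system, and Edn1 with Ednra for patterning the lower jaw. Edn1 is made by blood vessel endothelium and Ednra is carried by the muscle cells and pericytes around it.

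All embryos carried the Sox10:Histone2BVenus transgene, a nuclear reporter that marks neural crest-derived glia, and none carried a mutation that was compared here. Pieces of olfactory nerve (ON, in the mucosa, where mucosal olfactory ensheathing cells lie), of olfactory nerve layer (ONL, on the olfactory bulb) and of trigeminal nerve (TN, whose glia are Schwann cells) were cut at embryonic day E11.5, E13.5 or E16.5. At E16.5 there were 4 libraries of ON, 4 of the inner ONL, 4 of the outer ONL and 3 of TN, and the parts of the ONL were cut by position, so that neither is a pure population. The earlier libraries were 4 of E11.5 ON, 7 of E13.5 ON and 5 of E13.5 ONL. Each library pooled the same nerve region from several sections, the 4 E11.5 pieces came from 2 embryos, and the 12 pieces of E13.5 came from 4, so that pieces of a group share embryos and p-values over pieces are too small on that account. The E13.5 ON and ONL also share embryos with each other, which can move p-values the other way, and the net effect was not tested. The TN pieces of E16.5 were cut on the same sections as the olfactory pieces, so that E16.5 groups share embryos too, and which libraries do is not given by the labels.

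The labels of 10 early libraries did not match the group that their counts resembled. The counts of all libraries were compared with group averages that accompany the study, over 1759 genes, and each of the 31 libraries was placed in a single group; 21 fell in the group of their label and 10 did not. Libraries labelled E11.5 ON (4) and 1 labelled E13.5 ON went to the E13.5 ONL, 1 labelled E13.5 ONL went to the E13.5 ON, and 4 labelled E13.5 ONL went to the E11.5 ON. Early groups below follow that placement, and values with the libraries grouped by label are given beside the early comparisons. All E16.5 libraries fell in their labelled group. Totals ran from 3512627 to 36705535 counts per library, and from 13379107 at E16.5.

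The pieces held other tissue than glia. Levels are in CPM, which are counts scaled to each library's total after TMM correction of that total. The summed level of 10 neural crest glia markers was between 18854 and 33011 CPM in the outer and 20874 and 26194 CPM in the inner ONL. It was 1780 to 4052 CPM in the E16.5 ON and 2320 to 2777 CPM in the TN. The 6 epithelial keratin and adhesion genes summed to between 143 and 494 CPM in the E16.5 ON and to no more than 9.99 CPM in the E16.5 ONL libraries. The 9 vascular mural cell markers summed to 729 to 2932 CPM in the E16.5 ON, 1017 to 1747 CPM in the TN, 186 to 382 CPM in the outer and 125 to 182 CPM in the inner ONL. In pieces of tissue, fewer cells of a type and less RNA per cell cannot be told apart.

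The mature peptides of the ligands are shown so that the ligands named below can be told apart. Each is encoded by 63 bases of the second of 5 exons, here from the GENCODE transcripts of build GRCm38, read 5′ to 3′ on the plus strand of each gene. Capitals mark the 6 of 21 codons whose amino acid differs among the 3 peptides. Edn1 lies at chr13:42303649-42303711, Edn2 at chr4:120161951-120162013 and Edn3 at chr2:174761749-174761811.
Edn1: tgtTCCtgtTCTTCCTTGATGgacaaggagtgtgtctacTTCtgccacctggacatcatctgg
Edn2: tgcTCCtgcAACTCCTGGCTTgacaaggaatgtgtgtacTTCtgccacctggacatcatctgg
Edn3: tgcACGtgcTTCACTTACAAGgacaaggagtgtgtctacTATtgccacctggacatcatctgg
Edn1 and Edn2 share 53 of the 63 bases and differ at 3 amino acids, whereas Edn3 shares 50 bases with Edn1 and 48 with Edn2 and differs from each at 6. From the last capitals on, the bases are the same in all of them.

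Ednrb was the most abundant of the 6 genes per length in 30 of the 31 libraries. To compare genes, CPM were divided by the exon length of each gene in kilobases. At E16.5 Ednrb stood at 77.8 ± 12.6 CPM per kb in the ON, 99.2 ± 23.7 in the inner ONL, 172 ± 53.3 in the outer ONL (SD, n = 4 each) and 197 ± 39.2 in the TN (n = 3). On the same scale Ednra was at 39.1 ± 13.52 in the ON, 5.45 ± 0.728 in the inner and 10.4 ± 4.52 in the outer ONL and 35.6 ± 8.70 in the TN. Edn3 was the ligand with the highest level per length in 26 of the 31 libraries and Edn1 in the other 5. Edn3 stood at 26.7 ± 8.59 CPM per kb in the outer ONL (n = 4). Edn1 reached 5.25 ± 2.1 in the TN and Edn2 did not exceed 2.24 in any library. Ece1 lay between 21.9 and 44.7 CPM per kb in every E16.5 library.

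**Figure D1:**
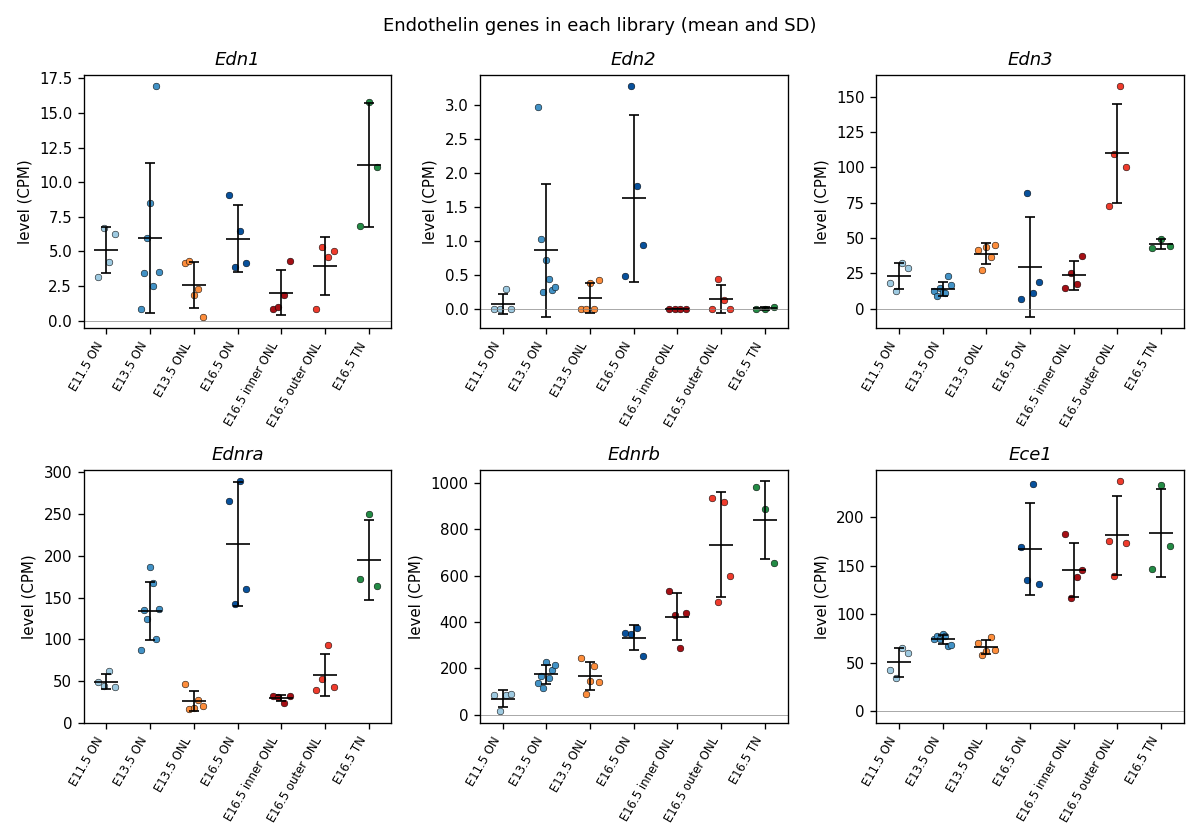
Level in CPM (vertical axes) of each endothelin gene in every library of the 7 groups (horizontal axes), with points for libraries and bars for mean and SD. Ednrb runs from 14.2 to 982 CPM, Edn3 runs from 72.5 to 157 CPM in the outer ONL and reaches 82.1 CPM in 1 library of the E16.5 ON, Ednra is low in the ONL groups, and Edn2 is near 0 outside the olfactory nerve.

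The receptors and Edn3 moved apart between the mucosal nerve and the outer ONL at E16.5. Ednrb and Edn3 were higher in the outer ONL, and Ednra and Edn2 were higher in the ON. By the quasi-likelihood test of edgeR, adjusted after Benjamini and Hochberg, 4 of the 6 genes passed, 2 in each direction, where 22.0% of all tested genes passed. Edn2 is among the 4 and had entered the tests only through ON libraries. The median log2 fold change of the 6 was -0.23, against 0.01 over all tested genes.

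Ednrb (chr14:103814625-103844402, minus strand, GRCm38), the receptor for all endothelins, was at 352, 349, 373 and 253 CPM in the 4 ON libraries and at 937, 485, 917 and 600 CPM in the 4 outer ONL libraries. The groups did not overlap, and the outer ONL libraries fell into a higher and a lower pair. The fitted difference was 2.21-fold (log2 fold change 1.15 ± 0.35 SE, adjusted p = 0.0167). The call was lost when ON replicate 4 (adjusted p = 0.0770), outer ONL replicate 1 (0.0669) or outer ONL replicate 3 (0.0507) was left out, and with libraries grouped by label (0.0595). Grouping by label left the E16.5 groups and this log2 fold change as they were, but its SE in the shared fit became 0.42.

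Edn3 (chr2:174760619-174784042, plus strand), the ligand that acts on neural crest through Ednrb, was at 72.5, 109, 157 and 100 CPM in the outer ONL. In the ON it was at 6.56, 82.1, 11.1 and 18.7 CPM. ON replicate 2 lay inside the outer ONL range and the other 3 lay far under it. With all libraries the difference was 3.71-fold (log2 1.89 ± 0.48, adjusted p = 0.00387), and without ON replicate 2 it was larger, at 3.18 on the log2 scale (adjusted p = 4.8e-07). ON replicate 2 also had the highest Sox10 of the 4 ON libraries, at 180 CPM against 97.5 to 122.

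Ednra (chr8:77663031-77724464, minus strand), the receptor of vascular muscle and facial mesenchyme, went the other way. An antisense gene, 4933431K23Rik, overlaps it and is counted on its own, and it is not stated whether counting used strand. It was at 266, 142, 289 and 160 CPM in the ON and at 39.8, 52.3, 93.4 and 43.2 CPM in the outer ONL, with no overlap (log2 -1.91 ± 0.30, 3.75-fold, adjusted p = 1.4e-05). The 2 ON libraries with the highest Ednra were also the highest in summed mural cell markers, with 2932 CPM in replicate 1 and 2591 CPM in replicate 3 against 729 and 1391 CPM in replicates 2 and 4. Of those 9 mural markers 6 were lower in the outer ONL, with Acta2 at -4.34 and Tagln at -4.24 on the log2 scale, and Des alone was higher (1.34). Of 8 mesenchyme markers 5 were lower, led by Twist1 (-2.02) and Prrx1 (-1.97). The part of these cells in the Ednra difference was not tested.

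Edn2 (chr4:120161206-120167360, plus strand) was barely detected. Its counts were 8, 53, 28 and 17 in the ON libraries and 0, 7, 2 and 0 in the outer ONL libraries, a pooled ratio of 11.7 with an exact 95% interval of 5.93 to 26.3 that covers counting error only. The fitted log2 fold change was -3.40 ± 1.23 (adjusted p = 0.0466), and the call was lost without ON replicate 2, 3 or 4 or outer ONL replicate 1, 3 or 4, with adjusted p between 0.0514 and 0.126. It was also lost with DESeq2 (adjusted p = 0.0538), without a filter on low counts (0.0589) and with libraries grouped by label (0.0735). All 6 epithelial markers were lower in the outer ONL as well, with Krt5 at -8.23 and Krt8 at -6.36 on the log2 scale. In ON replicates 1 to 4 the epithelial markers summed to 494, 143, 192 and 289 CPM, and the library with the most Edn2 had the least of them. The part of epithelial cells in the Edn2 difference was not tested. Edn1 (chr13:42301476-42307990, plus strand), which an antisense gene overlaps, had a log2 fold change of -0.57 ± 0.67 (adjusted p = 0.618) and Ece1 (chr4:137862237-137965229, plus strand) of 0.11 ± 0.19 (adjusted p = 0.752).

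**Figure D2:**
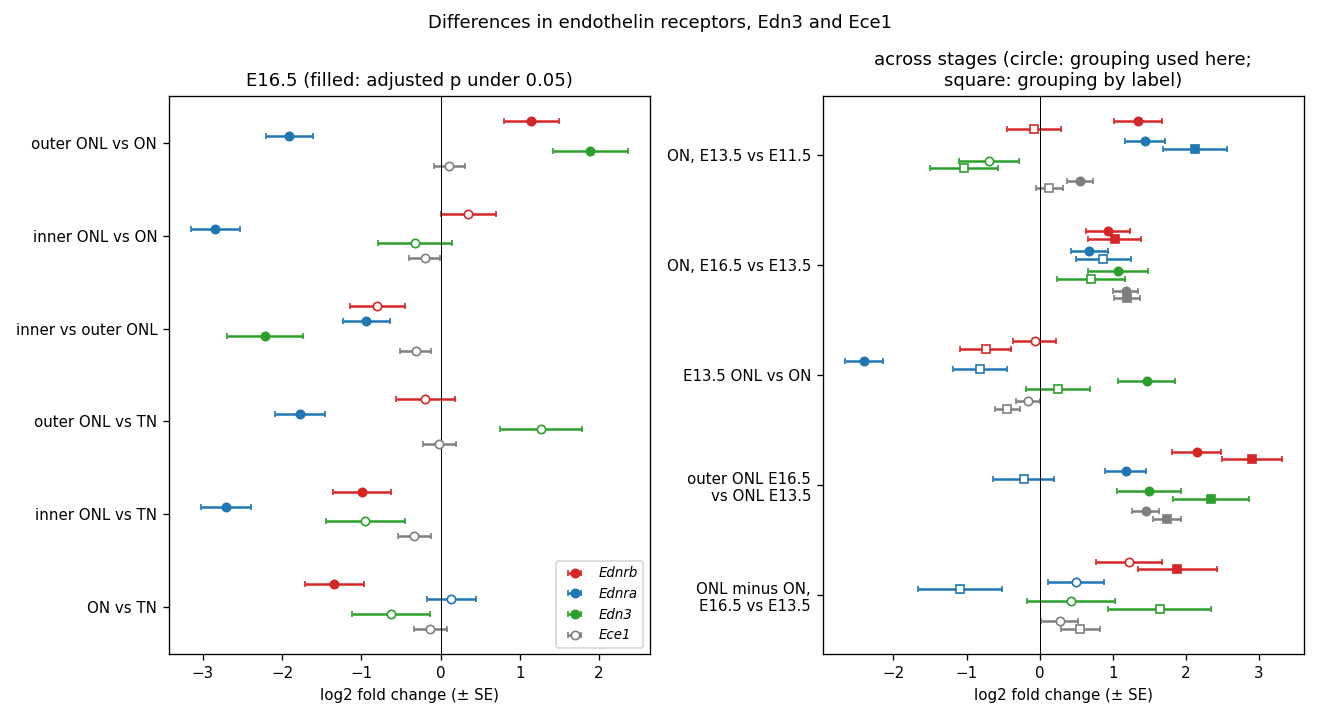
Log2 fold change with SE (horizontal axes) of Ednrb, Ednra, Edn3 and Ece1 in the E16.5 comparisons (left) and across stages (right), filled where the adjusted p is under 0.05. Ednra is lower in both parts of the ONL than in either nerve, and the grouping by label moves early differences both towards and away from 0.

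Genes that act with the receptors were examined from lists. Of 19 genes of the signalling steps downstream of endothelin receptors, 4 were higher in the outer ONL than in the ON and 3 were lower, and their median log2 fold change was 0.23 against 0.01 over all genes. The beta-arrestin gene Arrb1 (0.97) and the G protein regulator Rgs2 (0.80) rose most, and the G protein subunit gene Gnai1 (-1.30) and the calcium channel gene Itpr2 (-0.93) fell most. None of the 7 other genes that convert or break down endothelins was called by edgeR, with a median of -0.21. Of 9 genes known as Ednra targets in the facial mesenchyme 6 could be tested and all 6 were lower in the outer ONL, with a median of -3.53. Gsc (-5.80) and Dlx3 (-4.51), transcription factor genes of the jaw, fell most. Hand2, a defining target of Edn1 signalling in the lower jaw, had no count in any library.

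Lists of other neural crest lineages and of adjoining cell types were read in the same way. Of 7 tested melanocyte lineage genes 1 was lower in the outer ONL, Pax3 (-4.68), and none was higher. Mlana, a marker of pigment cells, stayed under 0.2 CPM on average in every group. Of 4 tested enteric neural crest genes 1 was higher, the GDNF co-receptor gene Gfra1 (1.5), and Tlx2 had no count in any library. Of 10 neural crest glia genes 7 were higher in the outer ONL, led by Fabp7 (3.56), and Gfra3 was lower (-1.77). Of 12 endothelial genes 3 were lower, with Pecam1 at -1.14 and Eng at -1.02. Of 6 olfactory neuron genes Ncam1 was higher (0.87) and 3 were lower, Gng8 (-2.01) and Omp (-1.62) most. Of 9 olfactory bulb genes 3 were higher, with Dlx1 (4.02) and Eomes (2.89) leading, and Reln was lower (-1.16).

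The inner and outer ONL differed in Edn3. The inner ONL libraries held 14.4, 25.4, 17.5 and 37.1 CPM of Edn3, all under the lowest outer ONL library (log2 -2.21 ± 0.48, 4.64-fold, adjusted p = 0.00144). This call held when any of the 8 libraries was left out. Ednra was also lower in the inner ONL, at 32.6, 31.1, 23.9 and 31.7 CPM (log2 -0.94 ± 0.29, adjusted p = 0.0283). That call was lost without outer ONL replicate 3 (log2 -0.59, adjusted p = 0.220), inner ONL replicate 2 (0.0540) or inner ONL replicate 3 (0.0849). Ednrb was at 535, 429, 289 and 440 CPM in the inner ONL and overlapped the outer ONL (log2 -0.80 ± 0.35, adjusted p = 0.144). In all, 2 of the 6 genes passed, both lower, beside 14.1% of all genes. Each of 8 mesenchyme markers was lower in the inner ONL, and their summed level ran from 921 to 2168 CPM there and from 5732 to 11010 CPM in the outer ONL. Their part in the Edn3 and Ednra differences was not tested. Of 6 tested Ednra target genes of the facial mesenchyme 2 were higher in the inner ONL, Dlx5 and Mef2c, and 0 were lower. The 9 listed targets summed to 114 to 167 CPM in the inner and 49.4 to 99.0 CPM in the outer ONL. Of 9 olfactory bulb genes 8 were higher in the inner ONL and 0 were lower, and of 6 olfactory neuron genes 3 were higher and 1 was lower. The part of bulb tissue and neurons in the rise of Dlx5 and Mef2c was not tested.

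Against the ON, the inner ONL differed in Ednra and Edn2 and not detectably in Ednrb or Edn3. Ednra was 7.17-fold lower (log2 -2.84 ± 0.31, adjusted p = 1.4e-08). Edn2 had 0 counts in all 4 inner ONL libraries, so that its level in the ON was at least 7.75-fold higher, reckoned against 3 counts per library. Ednrb had a log2 fold change of 0.35 ± 0.35 (adjusted p = 0.471). For Edn3 it was -0.32 ± 0.47 (adjusted p = 0.637). The ON libraries held 6.56, 82.1, 11.1 and 18.7 CPM of Edn3, and replicate 2 alone lay above the inner ONL range of 14.4 to 37.1 CPM. Ednra and Edn2, the 2 of 6 that passed, stood beside 35.5% of all genes, and Edn2 had entered the tests only through ON libraries. In the inner ONL 7 of 9 mural cell, 9 of 12 endothelial, 8 of 8 mesenchyme and 6 of 6 epithelial genes were lower, and their part in these differences was not tested.

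The trigeminal nerve overlapped the outer ONL in Ednrb and the ON in Ednra. Ednrb was at 982, 886 and 656 CPM in the TN and its log2 fold change in the outer ONL against the TN was -0.20 ± 0.37 (adjusted p = 0.762). Ednra was at 172, 250 and 163 CPM in the TN, and its log2 fold change in the ON against the TN was 0.13 ± 0.31 (adjusted p = 0.806). The sign of that Ednra difference turned without ON replicate 3 (log2 -0.028, adjusted p = 0.968).

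Against the TN the ON held less Ednrb, with no overlap (log2 -1.34 ± 0.37, 2.54-fold, adjusted p = 0.00788), and more Edn2. In the 3 TN libraries Edn2 had 1 count in all, so that the pooled ratio of 159 had an exact 95% counting interval from 28.0 to 6357. Edn3, at 43.2, 49.4 and 44.3 CPM in the TN, had a log2 fold change of -0.62 ± 0.49 in the ON (adjusted p = 0.403), which became -1.91 (adjusted p = 0.00043) without ON replicate 2. Here 2 of 6 genes passed, 1 in each direction, beside 23.6% of all genes. Edn2, called here, had entered the tests only through ON libraries.

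Between the outer ONL and the TN 1 of 6 genes passed, beside 25.8% of all genes. It was Ednra, lower in the outer ONL (log2 -1.77 ± 0.31, 3.41-fold, adjusted p = 5.4e-05), and no outer ONL library reached the lowest TN library. All 9 mural cell, 5 of 8 mesenchyme and 4 of 12 endothelial genes were lower in the outer ONL as well, and 0 were higher. Their part in the Ednra difference was not tested. Edn3 was higher in every outer ONL library than in every TN library, but its log2 fold change of 1.27 ± 0.51 missed the threshold (adjusted p = 0.0682). It passed with DESeq2 (adjusted p = 0.0405) and with those groups fitted alone (0.0016). Edn1, at 6.81, 15.8 and 11.1 CPM in the TN, was above all 4 outer ONL libraries, of which replicate 1 held 0.844 CPM and the others 4.62 to 5.34 (log2 -1.5 ± 0.71, adjusted p = 0.126). It passed with those groups fitted alone (adjusted p = 0.0452).

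In the inner ONL against the TN 3 of 6 genes were lower, beside 38.1% of all genes. They were Edn1 (log2 -2.47 ± 0.74, adjusted p = 0.00795), Ednra (-2.71 ± 0.32, adjusted p = 4.1e-08) and Ednrb (-0.99 ± 0.37, adjusted p = 0.0342). The Ednrb call was lost without inner ONL replicate 2, 3 or 4 or TN replicate 1 or 2, with adjusted p from 0.0548 to 0.141, and with libraries grouped by label (0.0849). Of 12 endothelial genes 9 and all 9 mural cell genes were lower in the inner ONL as well, and their part in the Edn1 and Ednra differences was not tested. Edn1 itself was low everywhere, with means between 2.002 CPM in the inner ONL and 11.2 CPM in the TN, and no pair of groups next to each other in that order was separated.

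The balance of the receptors lay further towards Ednrb in the ONL libraries than in those of the nerves. Ednrb exceeded Ednra per length by a median of 1.86-fold in the E16.5 ON (range 1.66 to 3.16), 5.16-fold in the TN (4.55 to 7.31), 15.2-fold in the outer ONL (11.9 to 30.2) and 17.7-fold in the inner ONL (15.5 to 21.1). The ranges of the outer and inner ONL overlapped and those of the ON, the TN and either part of the ONL did not. At E13.5 the medians were 1.58-fold in the ON (1.20 to 2.48) and 8.90-fold in the ONL (6.64 to 10.4). By label they were 1.58-fold (1.20 to 8.90) and 2.04-fold (0.418 to 2.64), and 8.33-fold in the E11.5 ON (6.64 to 10.4). In a single library of the E11.5 ON, labelled E13.5 ONL replicate 3, Ednra exceeded Ednrb, and there Ednrb was at 14.2 CPM against 86.4 to 87.6 CPM in the other 3. These ratios are a description and were not tested.

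**Figure D3:**
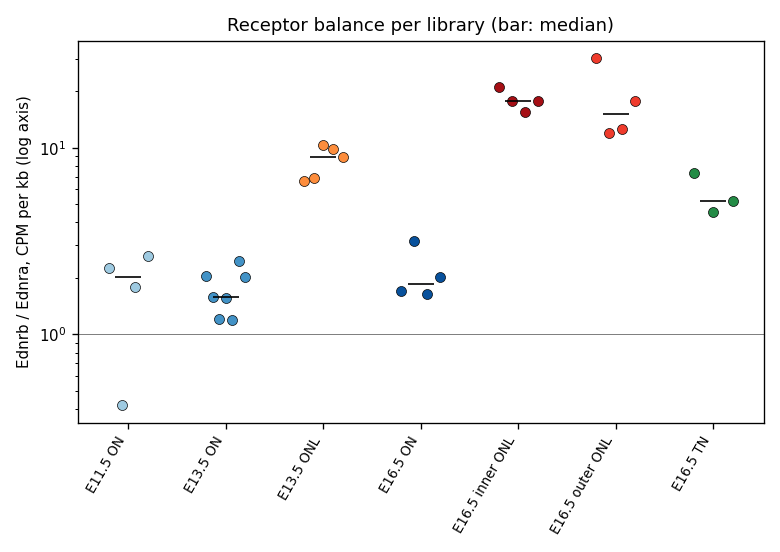
Ratio of Ednrb to Ednra, each in CPM per kb (vertical log axis), in every library by group, with a bar at the median. The 8 E16.5 ONL libraries lie between 11.9 and 30.2, above all ON and TN libraries.

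Edn3 and Ednra differed between the ONL and the ON at E13.5, where pieces share embryos within and between the groups. Edn3 was at 27.1 to 45.1 CPM in the 5 ONL libraries (median 41.8) and at 8.66 to 23.1 CPM in the 7 ON libraries (median 12.2), without overlap (log2 1.46 ± 0.39, adjusted p = 0.00369). Ednra was at 17.0 to 47.0 CPM in the ONL and at 86.7 to 186 CPM in the ON (log2 -2.40 ± 0.27, 5.29-fold, adjusted p = 1.9e-08). These 2 of 6 genes stood beside 31.5% of all genes, and both calls held whichever of the 12 libraries was left out. Ednrb was at 90.9 to 243 CPM in the ONL and 117 to 229 CPM in the ON (log2 -0.07 ± 0.29, adjusted p = 0.893), and the sign turned without the library labelled E11.5 ON replicate 2 (0.085, adjusted p = 0.879). With libraries grouped by label none of the 6 genes was called by edgeR, beside 17.7% of all genes, although Ednra and Ednrb had an unadjusted p of 0.0366 and 0.0437, Edn2 of 0.0123 and Ece1 of 0.0160, and the log2 fold changes were 0.25 for Edn3 and -0.82 for Ednra. Of 9 olfactory bulb genes 8 were higher in the ONL, led by Eomes (10.10) and Tbr1 (8.41), and 8 of 9 mural cell genes were lower. By label none of the bulb genes was higher and 2 were lower, Neurod6 (-8.62) and Emx1 (-3.41), and 5 mural cell genes were lower and 1 higher.

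Of the 19 signalling genes 3 were higher in the E13.5 ONL, with Rgs2 (1.37) and Gnaq (1.09) leading, and 2 were lower, Itpr2 (-1.22) and Itpr1 (-1.06). Ece2 (-0.49) and Ctsa (-0.34), peptidase genes, were the only called genes of the 7 that convert or break down endothelins. All 5 called Ednra target genes of 6 tested were lower, Gsc (-7.67) and Barx1 (-7.33) most. By label Rgs2 was lower (-0.98) with Rgs5 (-3.01) and Itpr1, 3 other signalling genes were higher, Rgs4 (1.09) and Plcb3 (0.68) most, Mme (-1.65) was the called gene of conversion and breakdown, and 1 of the Ednra targets was lower, Mef2c (-0.66).

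In the olfactory nerve 4 of 6 endothelin genes rose from E11.5 to E13.5, again with pieces that share embryos. They stood beside 36.6% of all genes called, with a median log2 fold change of 0.95 over the 6 and 0.05 over all. Ednra went from 42.5 to 61.9 CPM at E11.5 to 86.7 to 186 CPM at E13.5 (log2 1.44 ± 0.27, adjusted p = 0.00011). Ednrb was at 86.5, 14.2, 86.4 and 87.6 CPM in the E11.5 libraries and at 117 to 229 CPM at E13.5 (median 166), without overlap (log2 1.34 ± 0.32, adjusted p = 0.00164). Ece1 rose by 0.55 ± 0.18 on the log2 scale (adjusted p = 0.0145), a call lost without the library labelled E13.5 ONL replicate 2 (0.0578) or replicate 3 (0.0823). Edn2 rose (log2 3.64 ± 1.19, adjusted p = 0.0178) from 0, 0, 7 and 0 counts. It had entered the tests only through ON libraries of E13.5 and E16.5, so that this call is partly set by the filter on low counts. That call was lost without the library labelled E13.5 ON replicate 2 (0.0572) or E13.5 ONL replicate 5 (0.0508). Edn3 had a log2 fold change of -0.70 ± 0.41 (adjusted p = 0.186).

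By label 1 of the 6 was called, beside 17.5% of all genes; it was Ednra (log2 2.12, adjusted p = 0.00139), and Ednrb had a log2 fold change of -0.081. With the placement by counts 11 of 12 endothelial genes were higher at E13.5, as were 7 of 8 mesenchyme and 5 of 9 mural cell genes, including Cdh5 (2.51) and Abcc9 (4.86). Their part in the rise of the receptors was not tested. Of 6 Ednra targets 4 rose, Dlx3 (3.08) and Barx1 (2.32) most. Of the signalling genes 5 rose and 4 fell, and Rgs5, a gene of pericytes, rose most (7.66). Of the 7 genes that convert or break down endothelins, Mme (2.89) rose and Kel (-2.21) fell. By label none of the endothelial genes was called, 2 mesenchyme genes rose and 1 fell, 5 mural cell genes rose, 5 Ednra targets rose, 3 signalling genes rose and 3 fell, and Ece2 (0.45) was the called gene of conversion and breakdown.

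Ednrb and Ece1 were higher in the nerve pieces of E16.5 than in those of E13.5, which share embryos. Ednrb rose from 117 to 229 CPM to 253 to 373 CPM, without overlap (log2 0.93 ± 0.30, 1.91-fold, adjusted p = 0.0198). Ece1 rose from 67.3 to 79.4 CPM to 131 to 234 CPM, also without overlap (log2 1.18 ± 0.17, 2.26-fold, adjusted p = 5.4e-06). Both calls held when any library was left out. Ednra (log2 0.68 ± 0.25, adjusted p = 0.0407) and Edn3 (1.07 ± 0.41, adjusted p = 0.0465) were called too, which made 4 of 6, all higher, beside 28.8% of all genes. The Edn3 call rested on E16.5 ON replicate 2, without which its log2 fold change was -0.21 (adjusted p = 0.686), and was also lost without the libraries labelled E13.5 ON replicate 2, 3, 4, 5 or 6 or E13.5 ONL replicate 1 (0.0517 to 0.0824). The Ednra call was lost without E16.5 ON replicate 1 or 3 or the libraries labelled E13.5 ON replicate 2, 3, 4 or 7 or E13.5 ONL replicate 1 (0.0536 to 0.142). By label 2 of 6 were called, Ednrb and Ece1, beside 25.1% of all genes. Of 6 tested Ednra target genes Mef2c rose (0.92), whereas Dlx6 (-2.50) and Dlx5 (-0.85) fell. By label Mef2c rose and Dlx6 fell. Of 10 neural crest glia genes 7 rose, as did 6 of 12 endothelial and 5 of 9 mural cell genes, and of 8 mesenchyme genes 6 rose and 2 fell. By label 4 glia, 5 endothelial, 5 mural cell and 5 mesenchyme genes rose and 0 fell. The part of these cells in the rise of the endothelin genes was not tested.

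In the ONL 4 of 6 genes rose from E13.5 to the outer ONL of E16.5, beside 41.9% of all genes, again with early pieces that share embryos. Ednrb was at 243, 90.9, 147, 211 and 140 CPM in the E13.5 ONL and rose 4.43-fold (log2 2.15 ± 0.33, adjusted p = 5.5e-06). Edn3 rose 2.83-fold (log2 1.5 ± 0.44, adjusted p = 0.00657). Ece1 went from 58.5 to 76.3 CPM to 139 to 237 CPM, a 2.73-fold rise (log2 1.45 ± 0.19, adjusted p = 2.7e-07). Ednra rose 2.26-fold (log2 1.18 ± 0.28, adjusted p = 0.00106). Each of these calls held when any of the 9 libraries was left out. Ednrb, Edn3 and Ece1 did not overlap between the stages, whereas Ednra did. By label 3 of 6 were called, beside 35.2% of all genes, and Ednra had a log2 fold change of -0.22. All 9 mural cell and 7 of 12 endothelial genes rose as well, Acta2 (4.74) and Cldn5 (1.59) most, and 7 of 9 olfactory bulb genes fell, Tbr1 (-6.39) most. Of 10 neural crest glia genes 8 rose, among them Sox10 (log2 2.18 ± 0.25), and of 8 mesenchyme genes 5 rose and 1 fell. The part of these cells in the rise of the endothelin genes was not tested. Of the 19 signalling genes 5 rose, led by Itpr3 (2.18), and 3 fell, Gnai1 (-1.12) and Gnaq (-0.94) most. By label 4 mural cell, 8 endothelial and 6 glia genes rose, 4 mesenchyme genes rose and 2 fell, and 1 bulb gene rose and 1 fell. Of the signalling genes 4 rose by label, led by Rgs5 (5.0), and 2 fell.

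Whether the ONL and the ON diverged with age was tested as an interaction, in which the E13.5 pieces again share embryos. The ONL minus ON difference of Ednrb was 1.22 ± 0.45 larger at E16.5 than at E13.5 on the log2 scale, which missed the threshold (adjusted p = 0.0784). None of the 6 genes was called by edgeR, beside 12.3% of all genes, and Ednrb alone had an unadjusted p under 0.05. By DESeq2 none was called either. Ednrb was called without the library labelled E11.5 ON replicate 1 (adjusted p = 0.0451) or outer ONL replicate 2 (0.0494), and with those 4 groups fitted alone (0.0181). By label Ednrb was called (1.88 ± 0.54, adjusted p = 0.0206), beside 12.5% of all genes. The interaction of Sox10 was 1.05 (adjusted p = 0.0388). For Edn3 the interaction was 0.43 ± 0.61 (adjusted p = 0.753), and 1.71 (adjusted p = 0.0108) without E16.5 ON replicate 2.

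Ednrb was set against Sox10, the transcription factor that marks glia at every stage. Sox10 is a single gene and did not follow the summed neural crest glia markers throughout. That sum was 604 to 1065 CPM in the E11.5 ON and 576 to 1149 CPM in the E13.5 ON. It was 1780 to 4052 CPM in the E16.5 ON and 2320 to 2777 CPM in the TN. The ratio is therefore not a level of Ednrb per glial content. Sox10 was at 287 to 358 CPM in the E11.5 ON, 39.9 to 85.4 in the E13.5 ON, 71.4 to 219 in the E13.5 ONL, 97.5 to 180 in the E16.5 ON, 363 to 675 in the inner ONL, 572 to 712 in the outer ONL and 297 to 371 in the TN. The ratio of Ednrb to Sox10, on CPM with 0.5 added, was 0.211 ± 0.109 at E11.5 and 3.25 ± 1.12 in the E13.5 ON. At E16.5 it was 2.76 ± 0.723 in the ON, 2.55 ± 0.681 in the TN, 1.17 ± 0.450 in the outer ONL and 0.822 ± 0.312 in the inner ONL.

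So Ednrb was higher and its ratio to Sox10 was lower in the outer ONL than in the ON. All 4 outer ONL libraries had a lower ratio than every ON library, a 2.44-fold difference of geometric means, with an exact two-sided permutation p = 0.0286, the smallest that 4 against 4 allows, and p = 0.0571 after adjustment over the 8 ratio comparisons. That test takes the libraries as unpaired. With same-numbered libraries as pairs, a test chosen after seeing the data, the ratio was lower in 4 of 4 pairs (exact permutation p = 0.125, the smallest that 4 pairs allow, adjusted p = 0.2). The inner ONL against the ON gave the same p with a 3.47-fold lower ratio. The outer ONL was 2.26-fold lower than the TN, without overlap (exact permutation p = 0.0571, the smallest that 4 against 3 allows, adjusted p = 0.0914). The ON and the TN had ratios within 1.08-fold (exact permutation p = 0.686, adjusted p = 0.784).

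The E13.5 ONL had a 2.58-fold lower ratio than the E13.5 ON, with overlapping libraries (exact permutation p = 0.0227, adjusted p = 0.0571). It passed without the library labelled E11.5 ON replicate 1 (log2 -1.75, exact permutation, adjusted p = 0.0485). By label the ratio was 8.45-fold lower (log2 -3.08, exact permutation p = 0.00758, adjusted p = 0.0606). From E11.5 to E13.5 the ratio in the ON rose 17.5-fold, without overlap (exact permutation p = 0.00606, adjusted p = 0.0485), as Sox10 fell by 2.48 on the log2 scale and Ednrb rose. With any of the 11 libraries left out the adjusted p was 0.0571 (exact permutation), and no lower value was possible. The smallest p that fewer libraries allow does not pass after this adjustment, so that leaving out libraries cannot test this call. The early pieces share embryos. By label that rise was 0.86 on the log2 scale (exact permutation, adjusted p = 0.299). The ratio had a log2 difference of -0.19 between the ON of E16.5 and E13.5 (exact permutation, adjusted p = 0.711) and of -0.11 between the outer ONL of E16.5 and the ONL of E13.5 (adjusted p = 0.873 in the same exact permutation test).

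**Figure D4:**
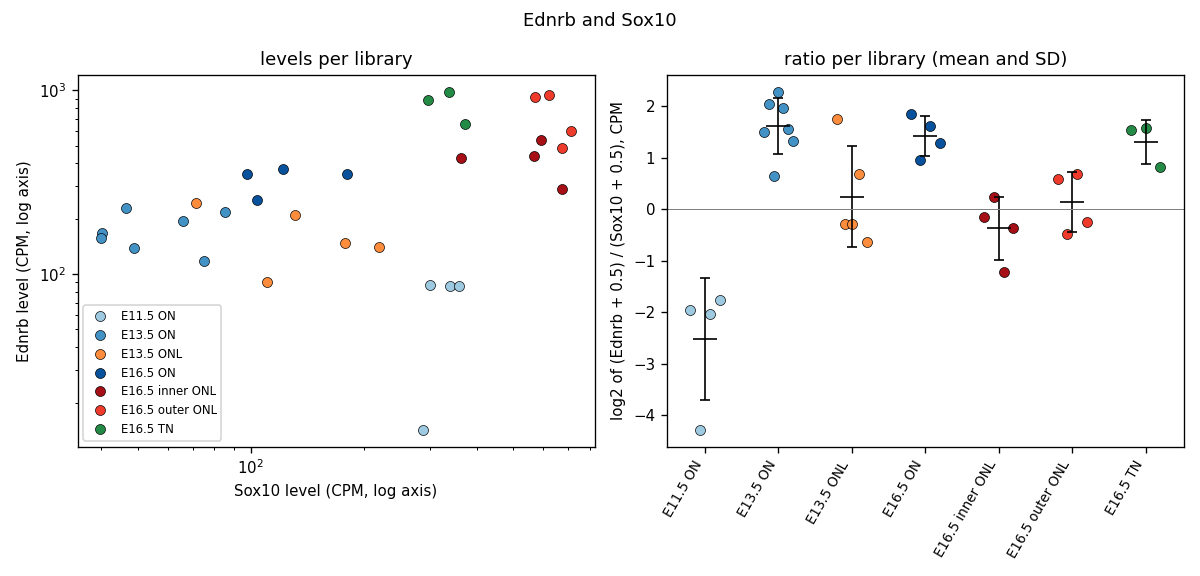
Left, Ednrb level against Sox10 level in CPM for every library (log axes). Right, log2 ratio of Ednrb to Sox10 by group, with mean and SD; the E11.5 ON lies lowest, between -4.29 and -1.77, and both ONL groups of E16.5 lie under the ON.

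Levels of the 6 genes were then compared across all 31 libraries, as a description. Libraries of a group share tissue and stage, so that the points are not independent. Ednrb followed Ece1 (Pearson r = 0.90 of log2 CPM) more closely than Sox10 (0.37) or Ednra (0.26). Ednra had its highest r among the endothelin genes with Edn1 (0.58), and Edn3 with Ednrb (0.48), while the r of Edn3 with Sox10 was 0.61. Among all tested genes the 5 most like Ednrb were Slc43a3 (0.95), Cyp39a1 (0.95), Cyp2j9 (0.95), Emc7 (0.94) and Tm7sf3 (0.94). Those most like Ednra were Parva (0.96), Fgf7 (0.94), Naalad2 (0.94), Lima1 (0.93) and Net1 (0.93). Edn3 was most like Arl4a (0.89), Ankrd55 (0.81), Agtr1a (0.78), Itga11 (0.77) and Slc6a13 (0.74), and Ece1 most like Rps6ka4 (0.95), Pomt2 (0.95), Tgfbr2 (0.94), Ano6 (0.94) and Gusb (0.93). Edn1 reached 0.78 with Prex2, followed by Gja5 (0.73), Vegfc (0.73), Gata6 (0.72) and Foxs1 (0.69). Edn2 reached 0.86 with Gm30648, followed by Olfr1404 (0.85), Ermn (0.85), Gm13185 (0.84) and Atp6v1b1 (0.83).

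**Figure D5:**
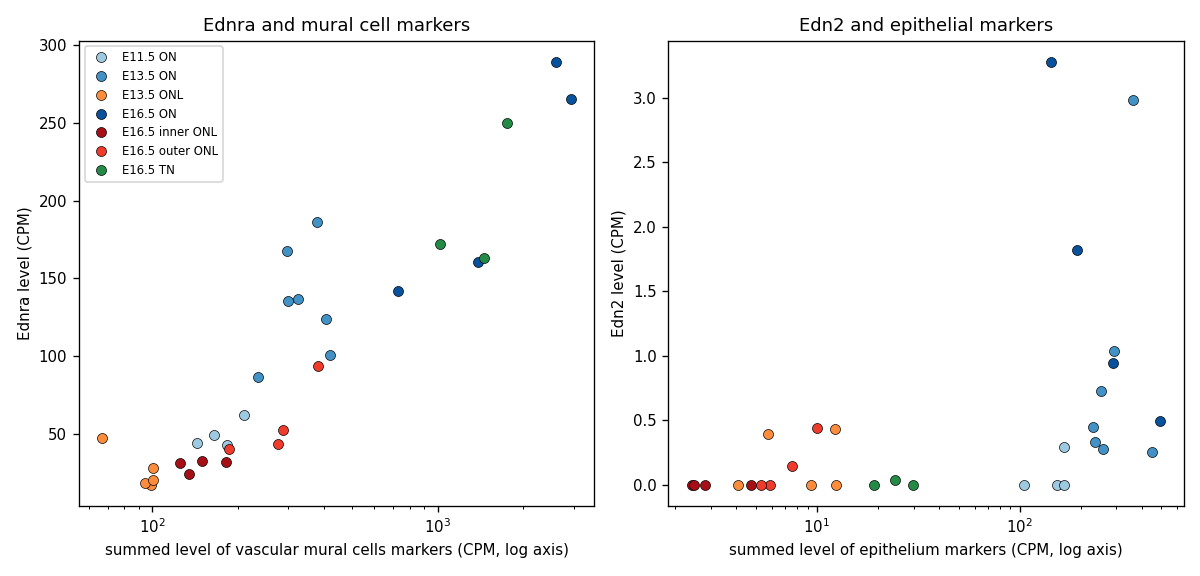
Left, Ednra level in CPM against the summed level of 9 mural cell markers (log axis) in every library. Right, Edn2 level against the summed level of 6 epithelial markers (log axis); within the E16.5 ON the library with the most epithelial markers (494 CPM) has the least Edn2 (0.495 CPM).

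In order of mean level, Ednrb was highest in the TN, followed by the outer ONL, the inner ONL, the E16.5 ON, the E13.5 ON, the E13.5 ONL and the E11.5 ON. Neighbours in this order overlapped, save at the step from the E16.5 to the E13.5 ON and from the E13.5 ONL to the E11.5 ON. Edn3 was highest in the outer ONL, which did not overlap the TN, and all later neighbours overlapped. For Ednra the order was E16.5 ON, TN, E13.5 ON, outer ONL, E11.5 ON, inner ONL and E13.5 ONL, and the E11.5 ON was the only group that did not overlap the next. Ece1 fell into a higher set, the 4 groups of E16.5 with 116 to 237 CPM, and a lower set, the 3 earlier groups with 34.1 to 79.4 CPM. Within E16.5 its log2 fold changes lay between -0.33 and 0.11 in the 6 comparisons, and none of these was called by edgeR or had an unadjusted p under 0.05.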

How the data were processed

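RNA was measured in 31 libraries of laser-microdissected tissue, amplified with SMART-seq v4 and sequenced in pairs. The authors aligned reads to mm10 with TopHat2 (2.1.0) and deposited HTSeq counts per Ensembl gene (1 row with no gene name left out); whether strand was used is not given in the sources used here. The 6 genes and all lists were chosen with earlier results of these data known. Here edgeR (4.0.16, R 4.3.3) quasi-likelihood tests were fitted over all 31 libraries and 7 groups, after TMM scaling and filterByExpr (minimum count 10), with Benjamini-Hochberg adjustment over 19332 genes and a threshold of 0.05. Levels are CPM on the TMM-scaled library totals of the genes that passed the filter. The ratio of Ednrb to Sox10 was tested by exact two-sided permutation. Named genes are the 6, Sox10, at most the 2 genes of each list with the largest called rise and the 2 with the largest called fall, and the 5 genes with the highest correlation with each of the 6; Hand2, Mlana and Tlx2, at or near 0, were named after their values were seen, and some list genes are not reported here. The fit was tested on simulated data. Alternatives were DESeq2 (1.42.0), other scalings, filters and groupings, a replicate block, a paired permutation (added after seeing the data), and leaving out each library. Same-numbered ON and outer ONL libraries of E16.5 had deviations with correlations of 0.131 to 0.262 and were taken as pairs in a block fit. Libraries of different numbers had correlations of -0.234 to 0.226, which overlap, so that the pairing is not established. The E16.5 groups share embryos, but the labels do not say which libraries, so other numbers were not taken as pairs. Counting intervals and the floor of 3 counts cover counting error only.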

Additional observations from a re-analysis of the deposited data

Results flagged for a closer look

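A library lay far from the rest of its group in 7 of 41 groups of values, by the Dixon test of the gap to the nearest value. The rate of about 1 in 20 for that test holds for independent, normally distributed values. CPM with zeros and values that share a library are not such, so that 7 of 41 cannot be read against it. Edn1 was at 0.844 CPM in E16.5 outer ONL replicate 1, against 4.62 to 5.34 CPM in the others. Edn3 was at 82.1 CPM in E16.5 ON replicate 2, against 6.56 to 18.7 CPM, and Ednra at 23.9 CPM in inner ONL replicate 3, against 31.1 to 32.6 CPM. Edn2 was at 2.98 CPM in the library labelled E13.5 ON replicate 2, against 0.252 to 1.04 CPM in the other E13.5 ON libraries. In the E11.5 ON, the library labelled E13.5 ONL replicate 4 held 0.290 CPM of Edn2, from 7 counts, and the others none. In the same group the library labelled E13.5 ONL replicate 3 held 14.2 CPM of Ednrb, against 86.4 to 87.6 CPM, and its log2 ratio of Ednrb to Sox10 was -4.29, against -2.04 to -1.77.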

How the results depend on the processing

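Between the outer ONL and the TN, 1 gene was called, against 2 with DESeq2 or scaling by total count and 3 with those groups fitted alone or with the replicate block. A stricter filter left 1 call for the ON against the TN and 1 for the inner ONL against the ON, since Edn2 was not tested there. With libraries grouped by label 2 genes were called for the outer ONL against the ON, 1 for the inner against the outer ONL, 2 for the inner ONL against the TN, 0 for the E13.5 ONL against the ON, 1 for the ON of E13.5 against E11.5, 2 for the ON of E16.5 against E13.5, and 1 for the interaction, which also gave 1 with its groups fitted alone. By label the ratio of Ednrb to Sox10 moved to -3.08 for the E13.5 ONL against the ON and to 0.86 for the ON of E13.5 against E11.5, and turned to 0.090 for E16.5 against E13.5 and to 1.88 for the outer ONL against the E13.5 ONL. Also by label, log2 fold changes turned to -0.081 for Ednrb in the ON of E13.5 against E11.5, -0.22 for Ednra in the outer ONL against the E13.5 ONL, and -1.09 for the interaction of Ednra. The cause of these turns was not tested. The E16.5 groups held the same libraries by label, so that calls within E16.5 changed through the fit that all 31 libraries share.

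Leaving out each library, the calls ranged from 2 to 4 for the outer ONL against the ON, 1 to 2 for the inner against the outer ONL, 2 to 4 for the ON of E16.5 against E13.5 and 0 to 1 for the interaction. The log2 ratio of Ednrb to Sox10 ranged from -0.14 to 0.27 for the ON against the TN (-0.031 without ON replicate 1), from -0.34 to 0.27 for the outer ONL against the E13.5 ONL (0.092 and 0.016 without outer ONL replicates 2 and 4), from 3.54 to 4.38 for the ON of E13.5 against E11.5 and from -1.75 to -1.15 for the E13.5 ONL against the ON. Signs also turned for log2 fold changes of Ednrb in the E13.5 ONL against the ON (range -0.24 to 0.085), Edn3 in the ON of E16.5 against E13.5 (-0.21 to 1.41) and Ednra in the ON against the TN (-0.028 to 0.37).

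The replicate block of the ON and outer ONL pairs called 3 genes (Edn3 2.50, Ednra -1.94 and Ednrb 1.09 on the log2 scale), and Edn2 was not tested in it; for the ratio of Ednrb to Sox10 the paired permutation, added after seeing the data, gave -1.29 (exact, adjusted p = 0.2). Where libraries share only a number, the block lost Ednra between the inner and outer ONL (adjusted p = 0.0536) and called Ednrb there (0.0435); it called 2 genes for the ON against the TN, 2 for the inner ONL against the ON and 4 for the inner ONL against the TN. Ednrb also passed between the inner and outer ONL with those groups (0.0300) or E16.5 (0.0208) fitted alone.

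Group sizes of 3 or 4 at E16.5, the shared embryos of the early pieces, tissue mixed by dissection and the low counts of Edn1 and Edn2 limit these comparisons.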
